A study of Mus musculus with 94 samples.

Results

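The 37 genes described here encode the enzymes that reverse or cut out alkylated and mismatched bases and refill the gap, and they were chosen as a list of genes, not by their values. The array measured 36 of them with a probe set that names 1 gene, out of 18194 genes measured in this way. Tdg, a glycosylase that removes thymine from G:T mismatches, lies only on 3 probe sets that name several genes and was left out. The 36 genes have 76 such probe sets, and the brightest on average gave each gene its main value, so that 16 genes rest on a single probe set and the other 20 can be read on 2 or more.

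Mouse brains were profiled on Affymetrix Mouse Genome 430 2.0 arrays, 1 per animal, after a single intraperitoneal injection of vehicle or of methylazoxymethanol acetate (MAM), the genotoxin of cycad seeds. All animals were 11-week-old male C57BL6 mice, either wild-type (wt) or Mgmt-/-, which lack a functional gene for O6-methylguanine methyltransferase, and were killed at 6, 24, 48 or 168 hr. Each of the 16 groups of genotype, agent and time held 6 animals, except wt vehicle at 48 hr, wt MAM at 168 hr and Mgmt-/- MAM at 168 hr, which held 5 each. Of 94 arrays 93 were used: 1 array of Mgmt-/- MAM at 168 hr carried liver RNA in place of brain RNA and is called the liver array below.

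MAM transfers methyl groups to DNA, most damagingly to the O6 position of guanine. The methyltransferase Mgmt takes that group off in a single step and is used up by doing so. A methylated guanine that stays pairs with thymine and is then seen by mismatch repair, which cuts out the new strand and leaves the methylated base in place, while smaller methylated bases are removed by glycosylases and the excision enzymes that follow. Most cells of adult brain no longer divide, and base excision repair is held to be their main defence against small base damage.

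All values are log2 signals as deposited, so a difference of 1 is a doubling, and a level on 1 probe set cannot be set against that on another. A gene was called changed where limma gave an adjusted p under 0.05 and a fold change above 1.3 either way, which is 0.38 on the log2 scale. The animal numbers fall into 2 sets, taken as the 2 laboratories of the study. Probe sets whose effects differed between the sets were set aside at that time point and have no adjusted p. This left 13, 16, 33 and 29 of the 36 genes tested at 6, 24, 48 and 168 hr, or 36.1, 44.4, 91.7 and 80.6%, against 36, 45.4, 81.2 and 71.1% of all genes. Unless a probe set is named, a called gene is one called on its main probe set, and shares of called genes are over the genes tested at that time. The labels do not say that the number sets are the laboratories, nor which set would be which. Reading them so is an assumption, and the laboratory filter and laboratory interactions below are those of the number sets.

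On the 93 arrays the summed level of 7 neuron markers lay between 14.73 and 15.10, that of 7 astrocyte markers between 14.22 and 14.60 and that of 6 oligodendrocyte markers between 14.46 and 14.98. Sums of 7 microglia markers lay between 10.94 and 12.13 and of 6 endothelium markers between 10.04 and 10.83. On the liver array the neuron, astrocyte and oligodendrocyte sums were 7.93, 9.63 and 9.65. The 7 liver markers other than Ttr, which brain also makes, summed to 16.68 there and to between 7.49 and 11.45 on the other arrays. The liver array lay above every other array for 14 of the 36 repair genes and below every other for 5. RNA quality was read from the array's controls for Gapdh and beta-actin, as the log2 signal of their 3' end less that of their 5' end, here the RNA 3'/5' index. In Mgmt-/- brain MAM minus vehicle for this index was 0.199, 0.146 and 0.117 at 6, 24 and 48 hr, with exact two-sided permutation p = 0.005, 0.005 and 0.01, and -0.037 at 168 hr with exact p = 0.68. The same differences in wt animals came to 0.064, 0.063, 0.001 and 0.063 (exact p = 0.12, 0.02, 0.99 and 0.015). Labels were exchanged within number sets only, and the smallest p this allows is 0.005 with 6 animals a group. In Mgmt-/- brain the rise of this index lay in beta-actin, at 0.378, 0.298 and 0.222 for 6, 24 and 48 hr, and Gapdh differed by 0.020, -0.007 and 0.013. Every Mgmt-/- MAM array at 6 hr, between 0.570 and 0.750, lay above every Mgmt-/- vehicle array of that time, between 0.417 and 0.460. It also differed between the genotypes in vehicle brain, from 0.269 to 0.336 in wt against 0.417 to 0.460 in Mgmt-/- at 6 hr and from 0.268 to 0.373 against 0.433 to 0.533 at 24 hr, without overlap, and with overlap at 48 and 168 hr. Fits with the index as a covariate are given beside the genes called on their main probe sets.

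**Figure D1:**
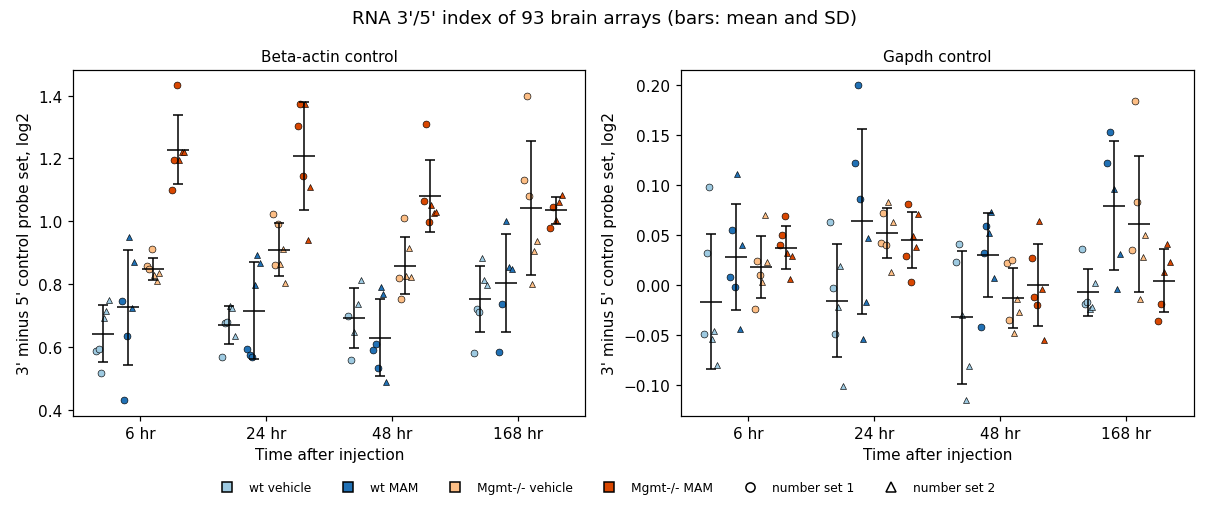
The RNA 3'/5' index of each of the 93 brain arrays in log2 units (y axis) by time after injection (x axis), for the beta-actin control on the left and the Gapdh control on the right. Circles and triangles are animals of number sets 1 and 2, and bars are the mean and SD. For beta-actin the Mgmt-/- MAM means were 1.228, 1.208, 1.080 and 1.035 from 6 to 168 hr. The Mgmt-/- vehicle means were 0.849, 0.910, 0.859 and 1.042, and all wt means lay between 0.631 and 0.805. For Gapdh the Mgmt-/- MAM groups at 6, 24 and 48 hr lie level with the rest.

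To show the start regions of the genes with a probe set that fell after MAM in Mgmt-/- brain, which for Rfc1 is its dimmest of 3, the promoters of Mbd4, Xpa and Rfc1 are given below from RefSeq on build GRCm38.p6, from 250 bases before to 50 bases after the transcription start, 5' to 3' on the gene's own strand. Each of these genes has 1 start in that table. Capitals mark a GC box (GGGCGG or CCGCCC), the CCAAT box (CCAAT or ATTGG) or the TGCGCA motif, core of the site of the factor NRF1, searched on both strands.

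Mbd4, chr6:115853292-115853591, minus strand: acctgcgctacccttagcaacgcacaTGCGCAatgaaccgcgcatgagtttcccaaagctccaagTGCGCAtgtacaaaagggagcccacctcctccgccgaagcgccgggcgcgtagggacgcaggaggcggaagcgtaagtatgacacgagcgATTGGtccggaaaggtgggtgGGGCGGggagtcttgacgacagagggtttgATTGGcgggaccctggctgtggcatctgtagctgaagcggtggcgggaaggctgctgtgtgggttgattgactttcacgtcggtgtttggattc

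Xpa, chr4:46196262-46196561, minus strand: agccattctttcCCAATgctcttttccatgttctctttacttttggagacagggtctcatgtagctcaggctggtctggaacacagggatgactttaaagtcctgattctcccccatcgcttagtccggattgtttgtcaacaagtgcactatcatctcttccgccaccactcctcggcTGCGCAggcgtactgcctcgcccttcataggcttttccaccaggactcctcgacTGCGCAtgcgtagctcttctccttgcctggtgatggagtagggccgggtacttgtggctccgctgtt

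Rfc1, chr5:65335590-65335889, minus strand: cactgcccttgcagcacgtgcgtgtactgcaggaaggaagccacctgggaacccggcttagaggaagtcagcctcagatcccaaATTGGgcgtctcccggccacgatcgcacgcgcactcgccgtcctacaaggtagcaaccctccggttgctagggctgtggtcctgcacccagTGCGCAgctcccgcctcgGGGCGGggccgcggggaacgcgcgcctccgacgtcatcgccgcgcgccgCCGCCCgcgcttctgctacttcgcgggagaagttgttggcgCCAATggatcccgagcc

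Position 1 is the first transcribed base here, and there is no position 0. TGCGCA begins at -224 and -185 in Mbd4, at -71 and -17 in Xpa and at -75 in Rfc1. A GC box begins at -74 in Mbd4 and at -57 and -8 in Rfc1, and the Xpa window holds none. The CCAAT letters, in either direction, begin at -95 and -44 in Mbd4, at -238 in Xpa and at -166 and 34 in Rfc1. The table held promoters for 34 of the members, 41 windows in all. Of these 12 held TGCGCA (29.3%), 25 a GC box (61.0%) and 23 a CCAAT box (56.1%), beside 7.8, 35.7 and 37.4% of all 32851 promoters in the table. These counts describe the letters of the windows and say nothing of binding in these brains.

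In wt brain no repair gene was called after MAM at any time. The background was equally empty, at 0% of tested genes called at 6 hr, 0% at 24 hr, 0% at 48 hr, 0% at 168 hr and 0% for the effect averaged over the 4 times. Without adjustment, 1 of the 36 genes had limma p under 0.05 at 6 hr, 0 at 24 hr, 5 at 48 hr and 0 at 168 hr (2.78, 0, 13.9 and 0%), against 3.34, 5.97, 13.8 and 2.89% of all genes. The differences ran from -0.19 to 0.22 at 6 hr, from -0.20 to 0.18 at 24 hr, from -0.28 to 0.28 at 48 hr and from -0.14 to 0.15 at 168 hr. Their medians of 0.06, 0.02, 0.03 and -0.03 lay beside medians of 0.04, 0.01, 0.00 and -0.01 over all genes. The standard error of such a difference was about 0.09 to 0.10 for the median member.

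In Mgmt-/- brain MAM lowered Xpa at 6 hr and Mbd4 at 24 hr, and no repair gene was called higher at any time. These are 1 of 13 members tested at 6 hr (7.69%), 1 of 16 at 24 hr (6.25%), 0 of 33 at 48 hr and 0 of 29 at 168 hr, beside 1.69, 0.508, 0.19 and 0.642% of all tested genes called in either direction at those times. The number with unadjusted limma p under 0.05 was 5, 4, 1 and 3 (13.9, 11.1, 2.78 and 8.33%), against 16.9, 12.6, 7.76 and 11.8% of all genes. At each time this share was below that of all genes. Their median differences were -0.01, -0.02, -0.02 and 0.02, with all genes at 0.02, 0.02, 0.01 and -0.01, and their extremes ran from -0.53 to 0.37. The sign of the MAM effect was the same in both number sets for 8, 9, 18 and 19 of the 36 genes at 6, 24, 48 and 168 hr. In wt brain it was the same for 22, 13, 24 and 19. This was not counted over all genes, so it cannot be called a trait of the repair genes.

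**Figure D2:**
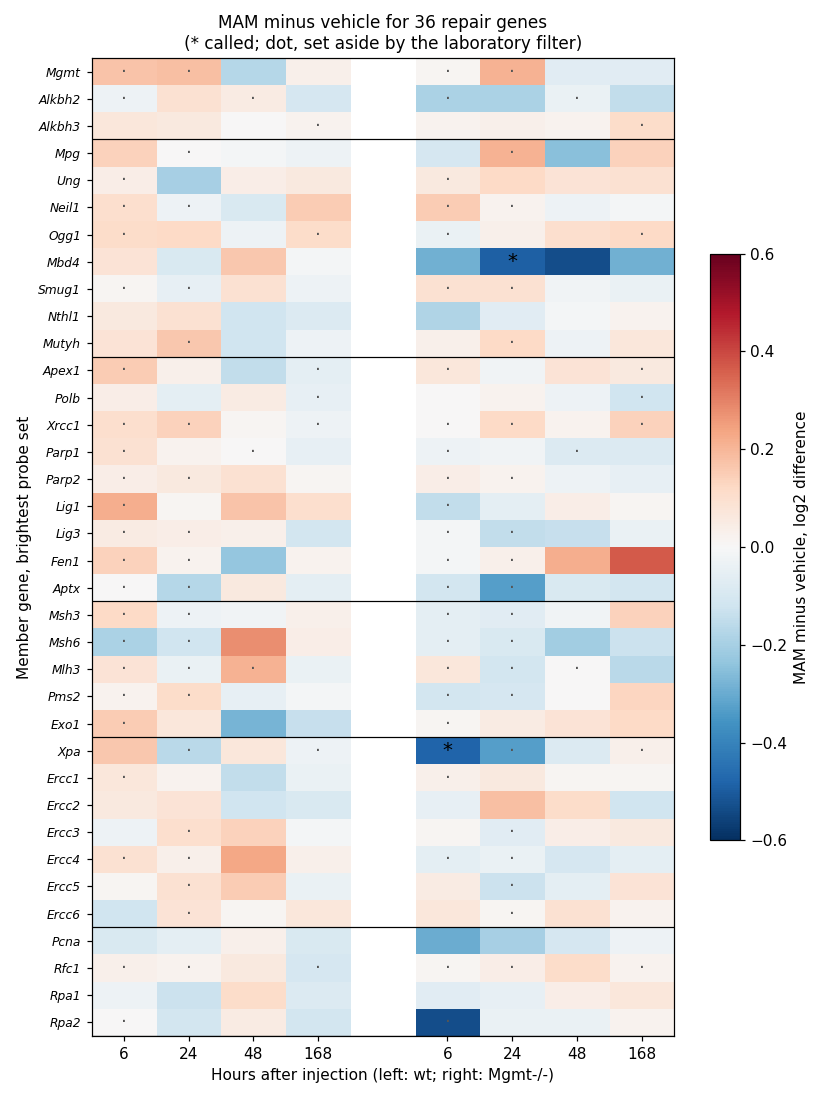
MAM minus vehicle in log2 units (colour) for the main probe set of each of the 36 repair genes (rows, grouped by role), at the 4 times in wt and in Mgmt-/- brain (columns). Most cells lie near 0, and the darkest run along Mbd4 in Mgmt-/- brain, with single dark cells for Xpa and Rpa2 at 6 hr.

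The enzymes of direct reversal showed no called change where they were tested. Alkbh2 was tested at 24 and 168 hr and Alkbh3 at 6, 24 and 48 hr. Mgmt itself was read on 1 probe set, 1421309_at. There Mgmt-/- minus wt in vehicle brain was 0.04, 0.05, -0.13 and 0.02 at 6, 24, 48 and 168 hr. None of these was called, but the probe set was set aside at 6 and 24 hr, where no call was possible. The 16 group means of Mgmt lay between 5.61 and 5.87. Where its probes lie relative to the deleted part of the gene was not analysed here, so this signal does not check the genotype labels. At 24 hr, where the wt effect had its smallest p, wt vehicle arrays read 5.50, 5.59 and 5.73 (lowest, median and highest) and wt MAM arrays 5.61, 5.69 and 6.16. These overlapped, with a difference of 0.18 ± 0.13 (SE). The Mgmt-/- vehicle arrays at 6 hr were spread from 5.16 to 6.45, with an SD of 0.55 against 0.08 in wt vehicle. There the MAM effect was of opposite sign in the 2 number sets, at 0.43 in set 1 and -0.42 in set 2.

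Alkbh2, a dioxygenase that strips alkyl groups from adenine and cytosine, had the smallest p of the reversal enzymes in Mgmt-/- brain. At 6 hr its Mgmt-/- vehicle arrays read 4.89, 5.07 and 5.38 and its Mgmt-/- MAM arrays 4.83, 4.90 and 5.04. All 6 MAM arrays lay below the vehicle median and 3 below every vehicle array, for a difference of -0.19 ± 0.08, but it was set aside at 6 hr because its effects differed between the number sets, and without that filter its adjusted p was 0.22 (limma). The later differences were -0.19 at 24 hr, -0.04 at 48 hr and -0.15 at 168 hr. Alkbh3, a relative that prefers single strands, ran from 0.02 to 0.11 in Mgmt-/- brain and from 0.00 to 0.07 in wt brain.

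Among the glycosylases, which cut a damaged base from its sugar, Mbd4 was the gene that moved. Mbd4 removes thymine or uracil from mismatches at methylated CpG sites. Its main probe set, 1449490_at, read 5.89, 6.41 and 6.59 in Mgmt-/- vehicle brain at 24 hr and 5.67, 5.86 and 6.03 after MAM. All 6 MAM arrays lay below the vehicle median and 3 below every vehicle array, and the groups overlapped. The difference was -0.49 ± 0.10 (SE, n = 6 and 6, limma adjusted p = 0.016), with -0.60 in number set 1 and -0.39 in set 2.

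The signal of Mbd4 was below vehicle at the other times as well. At 6 hr the Mgmt-/- vehicle arrays read 5.83, 6.36 and 6.51 and the MAM arrays 5.52, 6.08 and 6.21, a difference of -0.29 ± 0.12 (adjusted p = 0.17, limma). At 48 hr the vehicle arrays read 6.06, 6.45 and 6.54 and the MAM arrays 5.28, 5.87 and 6.12, a difference of -0.53 ± 0.15 (adjusted p = 0.16, limma), with 5 of 6 MAM arrays below every vehicle array. At 168 hr the vehicle arrays read 5.78, 6.37 and 6.63 and the MAM arrays 5.85, 6.03, 6.12, 6.14 and 5.66. That difference was -0.29 ± 0.13 (adjusted p = 0.44, limma). Every one of the 23 MAM arrays lay below the median of its vehicle group, and only the 24 hr difference passed the test by itself.

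In wt brain the Mbd4 differences were 0.08 ± 0.12, -0.09 ± 0.10, 0.16 ± 0.16 and -0.01 ± 0.13 at 6, 24, 48 and 168 hr, none of them called. The lowest, median and highest arrays were 6.08, 6.17 and 6.48 in wt vehicle and 5.98, 6.36 and 6.43 in wt MAM brain at 6 hr, and 6.15, 6.32 and 6.39 against 5.95, 6.20 and 6.50 at 24 hr. These ranges overlapped throughout, as did those of 48 hr, where the 5 vehicle arrays read 7.01, 6.19, 5.93, 5.98 and 6.18 and the MAM arrays 6.18, 6.39 and 6.66. At 168 hr wt vehicle read 5.99, 6.51 and 6.52 and the 5 wt MAM arrays 6.36, 5.95, 6.56, 6.70 and 6.51. No wt group mean fell under 6.22, and the 4 Mgmt-/- MAM means were 6.00, 5.86, 5.82 and 5.96.

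Averaged over the 4 times, Mbd4 was the single one of 36 repair genes called on its main probe set after MAM in Mgmt-/- brain (2.78%), at -0.40 ± 0.07 (adjusted p = 7.0e-06, limma), where 0.517% of all genes were called. It differed by 0.03 ± 0.07 in wt brain. On main probe sets it was also the single repair gene called for the difference between those effects, at -0.44 ± 0.10 (adjusted p = 0.0029, limma), with 0.352% of all genes called. With the RNA index as a covariate the Mgmt-/- effect was -0.35 ± 0.08 (adjusted p = 0.0038, limma), under the fold threshold, and the difference between genotypes was still called. At 24 hr the covariate left the size at -0.44 and ended the call (adjusted p = 0.32, limma). The 24 hr call also ended without either of 2 Mgmt-/- vehicle arrays and without either of 2 Mgmt-/- MAM arrays, with the difference between -0.60 and -0.44 in the 24 fits that left out 1 array.

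The other probe sets of Mbd4 moved less. Averaged over the times in Mgmt-/- brain, 1457708_at gave -0.16 ± 0.06 (adjusted p = 0.039, limma) and 1441079_at gave -0.03. At 24 hr they gave -0.22 ± 0.10 and -0.11 ± 0.07, neither called. The fall of Mbd4 was called on 1 of its 3 probe sets.

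Liver markers moved in the same brains: of 8 such genes, 2 were called higher after MAM in Mgmt-/- brain at 6 hr, 1 at 24 hr and 0 at 48 and 168 hr. Of all tested genes 1.69, 0.508, 0.19 and 0.642% were called in either direction at those times. How many of the 8 were tested is not given here. The 7 other than Ttr summed to between 7.75 and 8.53 in Mgmt-/- vehicle brain at 24 hr and to between 8.05 and 10.08 after MAM, and to between 7.72 and 8.37 against 8.24 and 8.82 at 48 hr. In wt brain these sums lay between 7.94 and 9.80 after vehicle and between 7.77 and 8.63 after MAM at 24 hr. At 48 hr they lay between 7.82 and 8.78 and between 7.66 and 9.95. The liver array read 4.99 for Mbd4. Of 3 erythroid markers 2 were measured, and their sum lay between 5.97 and 6.71 in Mgmt-/- vehicle brain at 48 hr and between 5.42 and 5.94 after MAM, without overlap. At 168 hr it averaged 6.09 after vehicle and 5.69 after MAM, and in wt brain at 48 hr it averaged 5.99 and 5.82. The part of these markers in the Mbd4 difference was not tested.

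**Figure D3:**
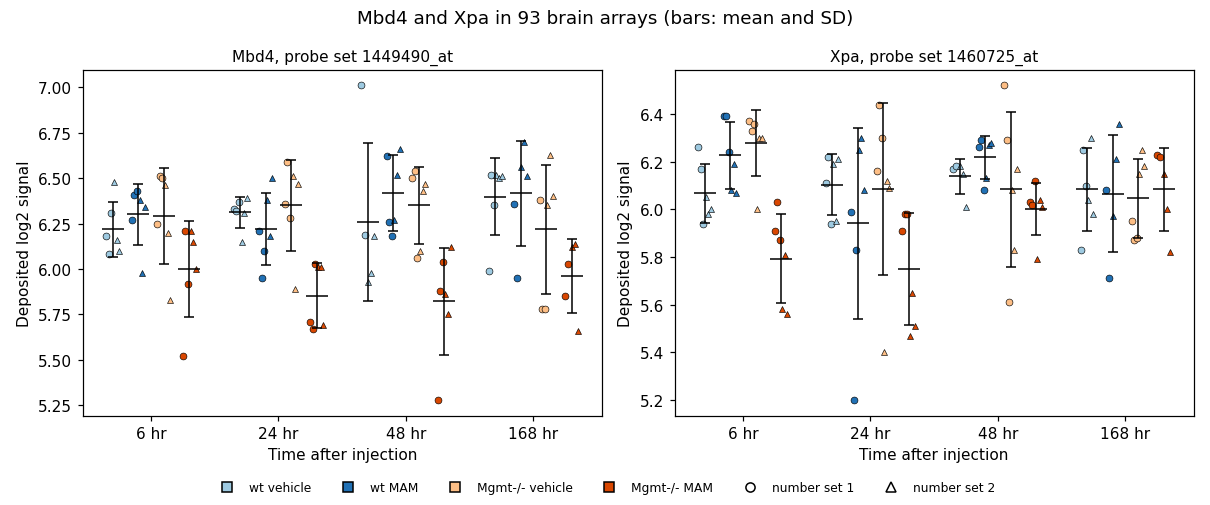
Deposited log2 signal (y axis) of the main probe sets of Mbd4 and Xpa on each array by time after injection (x axis). Circles and triangles are animals of number sets 1 and 2 and bars are the mean and SD. Mbd4 in Mgmt-/- MAM brain has means of 6.00, 5.86, 5.82 and 5.96 from 6 to 168 hr. Xpa there was called lower than vehicle at 6 hr only. It was set aside at 24 and 168 hr, and its MAM and vehicle arrays overlap at 24, 48 and 168 hr.

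Ung, which removes uracil from DNA, was called between the genotypes and in no comparison of MAM with vehicle. At 24 hr wt vehicle arrays read 4.91, 5.14 and 5.47 and Mgmt-/- vehicle arrays 4.33, 4.57 and 5.10. The groups overlapped, and the difference of -0.49 ± 0.15 (adjusted p = 0.039, limma) was called. It was the 1 repair gene of 16 tested that was called between the genotypes in vehicle brain at 24 hr (6.25%), where 3.1% of all tested genes were called. With the RNA index as a covariate, which was higher on every Mgmt-/- than on every wt vehicle array at this time, it was -0.64 and not called (adjusted p = 0.11, limma). This call ended in 12 of the 24 fits that left out 1 array. Averaged over the times the difference was -0.25 ± 0.07 (adjusted p = 0.0034, limma), under the fold threshold, and after MAM it was -0.15 ± 0.07.

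Mutyh, which removes adenine opposite oxidized guanine, had the smallest p of the glycosylases in wt brain, at 24 hr. Wt vehicle arrays read 5.17, 5.34 and 5.45 and wt MAM arrays 5.28, 5.46 and 5.74, a difference of 0.16 ± 0.09. The groups overlapped and the probe set was set aside at that time. Mpg, the glycosylase for methylated adenine and guanine, differed by 0.14, 0.00, -0.01 and -0.03 in wt brain and by -0.10, 0.21, -0.25 and 0.14 in Mgmt-/- brain, with no p under 0.05. The remaining glycosylases, Neil1, Ogg1 and Nthl1 for oxidized bases and Smug1 for uracil, ran from -0.18 to 0.15 over both genotypes and all times. No enzyme that starts base excision was called higher after MAM. Of these glycosylases only Mpg, Mbd4, Nthl1 and Mutyh were tested at 6 hr. Only Ung, Ogg1, Mbd4 and Nthl1 were tested at 24 hr, and Ogg1 was set aside at 168 hr.

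Of the 9 genes that cut, refill and seal the excised site, none was called after MAM in either genotype. At 6 hr only Polb was tested, and at 24 hr only Apex1, Polb, Parp1 and Lig1. Parp1 was set aside at 48 hr and Apex1, Polb and Xrcc1 at 168 hr, so the other effects at these times could not be called. Lig1, the ligase of replication and long-patch repair, had the smallest p in wt brain. At 48 hr the wt vehicle arrays ran from 6.52 to 6.92 around a median of 6.66 and the MAM arrays from 6.75 to 6.96 around 6.91, a difference of 0.17 ± 0.08 (adjusted p = 0.33, limma). In vehicle brain at 6 hr Mgmt-/- minus wt was 0.42 ± 0.11 for Lig1. It was set aside there and was called (adjusted p = 0.02, limma) only without that filter.

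Fen1, the nuclease that trims the displaced flap, had the smallest p of these genes in Mgmt-/- brain, at 168 hr. Its vehicle arrays read 8.83, 8.95 and 9.70 and its 5 MAM arrays ran from 9.20 to 9.96 around 9.36, a difference of 0.37 ± 0.14 (adjusted p = 0.31, limma). After MAM at 48 hr Fen1 was called higher in Mgmt-/- than in wt brain, by 0.47 ± 0.16 (adjusted p = 0.035, limma). The wt MAM arrays ran from 8.91 to 9.03 and the Mgmt-/- MAM arrays from 9.12 to 10.42, so the groups did not overlap. The highest Mgmt-/- MAM array stood at 10.42 with the next at 9.30, and without it the difference was 0.27 and not called. The same difference with the RNA index as a covariate was 0.32 and not called (adjusted p = 0.67, limma).

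The main probe set of Fen1, 1436454_x_at, is of a type that may bind other transcripts, and another probe set gave the opposite sign. In the same comparison 1421731_a_at was lower in Mgmt-/- brain by 0.53 ± 0.12 on the log2 scale (adjusted p = 0.0026, limma). Averaged over the times after MAM the main probe set differed by 0.36 ± 0.08 and 1421731_a_at by -0.45 ± 0.08 (adjusted p = 1.3e-04 and 8.7e-07, limma). With the RNA index as a covariate 1421731_a_at gave -0.33 at 48 hr, not called, and -0.39 averaged, called. No direction can be given for the Fen1 gene from these probe sets.

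The other genes of this role differed little. Apex1, which cuts the strand at the empty site, Polb, which fills in 1 base, Xrcc1, their scaffold, and Lig3, its ligase, differed by at most 0.15 either way in both genotypes. Parp1 and Parp2, which sense the nick, ran from -0.08 to 0.09. Aptx, which clears stalled ligation ends, differed by -0.33 ± 0.13 in Mgmt-/- brain at 24 hr and was set aside there. In single other probe sets, Polb 1425371_at was called 0.44 higher in Mgmt-/- than in wt brain after MAM at 6 hr (adjusted p = 0.0059, limma), and Parp1 1435368_a_at was called 0.40 lower in Mgmt-/- vehicle brain at 48 hr (adjusted p = 0.024, limma).

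None of the 5 mismatch repair genes was called in any comparison, but few could be at the early times. All 5 were set aside at 6 hr, all but Exo1 at 24 hr, and Mlh3 also at 48 hr. Exo1, the nuclease that removes the mismatched strand, had the smallest p in wt brain. At 48 hr wt vehicle arrays read from 4.16 to 4.55 around 4.35 and wt MAM arrays from 3.98 to 4.20 around 4.08, a difference of -0.28 ± 0.08 (adjusted p = 0.16, limma). The Mgmt-/- difference at that time was 0.08 ± 0.07. Msh6, which with its partner detects single mismatches, differed the other way, by 0.28 ± 0.11 in wt brain (adjusted p = 0.25, limma) and by -0.21 ± 0.11 in Mgmt-/- brain (adjusted p = 0.6, limma) at 48 hr. Its wt vehicle arrays ran from 6.47 to 6.97 and its wt MAM arrays from 6.78 to 7.11, and its Mgmt-/- arrays from 6.65 to 7.25 after vehicle and from 6.38 to 6.92 after MAM. The difference between the genotypes in the MAM effect was -0.49 for Msh6 (adjusted p = 0.13, limma) and 0.36 for Exo1 (adjusted p = 0.11, limma). Msh3, for larger loops, Mlh3 and Pms2 stayed between -0.16 and 0.21.

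In nucleotide excision repair, which cuts out bulky lesions, Xpa moved. Xpa checks the damaged strand and places the nucleases. Its main probe set, 1460725_at, read 6.00, 6.31 and 6.37 in Mgmt-/- vehicle brain at 6 hr and 5.56, 5.84 and 6.03 after MAM. Of the 6 MAM arrays 5 lay below every vehicle array. The difference was -0.48 ± 0.07 (adjusted p = 2.2e-04, limma), with -0.41 in number set 1 and -0.55 in set 2, and it was called in all 24 fits that left out 1 array, at -0.52 to -0.45.

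In wt brain at 6 hr the Xpa arrays ran from 5.94 to 6.26 around 6.03 after vehicle and from 6.07 to 6.39 around 6.22 after MAM. These overlapped, and the difference of 0.16 ± 0.07 (adjusted p = 0.87, limma) was not called. On main probe sets Xpa was the single repair gene called for the difference between the genotypes in the MAM effect at a single time, at -0.64 ± 0.09 (adjusted p = 0.0024, limma) at 6 hr, where 0.168% of tested genes were called. At 24, 48 and 168 hr no member was called for that difference on its main probe set, and 0.0605, 0.474 and 0.101% of tested genes were.

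At the later times Xpa was not called. In Mgmt-/- brain at 24 hr vehicle arrays read 5.40, 6.14 and 6.44 and MAM arrays 5.47, 5.78 and 5.98, a difference of -0.33 ± 0.16 that was set aside (adjusted p = 0.45 without that filter, limma). At 48 hr vehicle read 5.61, 6.12 and 6.52 and MAM 5.79, 6.02 and 6.12, and at 168 hr vehicle read 5.87, 6.05 and 6.25 and the 5 MAM arrays ran from 5.82 to 6.23 around 6.15. The groups overlapped at these times, with differences of -0.08 ± 0.10 and 0.03 ± 0.11. In wt brain they were -0.16, 0.07 and -0.03 at 24, 48 and 168 hr. Averaged over the times the Mgmt-/- difference was -0.22 ± 0.06 (adjusted p = 0.009, limma), under the fold threshold.

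With the RNA index as a covariate the Xpa difference at 6 hr was -0.42 (adjusted p = 0.15, limma) and was no longer called, and its difference between genotypes was still called. The other probe sets of Xpa were not called: at 6 hr 1437320_s_at gave 0.09 ± 0.09 and 1456002_at gave -0.14 ± 0.10. These were dimmer, at means of 4.20 and 3.43 over the arrays beside 6.06 for the main one. The 7 liver markers other than Ttr summed to between 7.49 and 8.76 in Mgmt-/- vehicle brain at 6 hr and to between 8.54 and 10.56 after MAM. In wt brain at 6 hr these sums lay between 8.12 and 9.52 after vehicle and between 7.71 and 9.69 after MAM. The liver array read 7.65 for Xpa, above every other array. The part of these markers in the Xpa difference was not tested.

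The other nucleotide excision genes, Ercc1 to Ercc6, comprise the nucleases Ercc1, Ercc4 and Ercc5, the helicases Ercc2 and Ercc3 that open the helix and the transcription-coupling factor Ercc6. They ran from -0.15 to 0.23 in wt and from -0.13 to 0.18 in Mgmt-/- brain over the 4 times, with none called. Ercc1 and Ercc4 were set aside at 6 hr and Ercc3, Ercc4, Ercc5 and Ercc6 at 24 hr. The lowest adjusted p over these genes in a MAM comparison was 0.28, for Ercc4 in wt brain at 48 hr (limma). Ercc6 had the narrowest range of all members, with group means between 3.36 and 3.48.

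Of the clamp, its loader and the single-strand binding proteins, which serve several of these pathways, none was called on its main probe set. Rpa2, a subunit of the single-strand binding complex, differed most. At 6 hr the main probe set, 1454011_a_at, read 6.71, 6.93 and 7.10 in Mgmt-/- vehicle brain and 6.34, 6.36 and 6.61 after MAM. All 6 MAM arrays lay below every vehicle array, which happened for no other member on its main probe set in any MAM comparison and for 2.25% of all genes in this one. The difference was -0.53 ± 0.10 and was set aside because its effects differed between the number sets. It would be called without that filter (adjusted p = 0.0049, limma). With the RNA index as a covariate it was -0.15 ± 0.13. The other Rpa2 probe set, 1416433_at, gave -0.31 ± 0.09, and at 24, 48 and 168 hr the main one gave -0.04, -0.04 and 0.02.

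Pcna, the sliding clamp, differed by -0.30 ± 0.08 in Mgmt-/- brain at 6 hr (adjusted p = 0.027, limma), short of the fold threshold, and by -0.20, -0.10 and -0.03 at the later times and by -0.16 ± 0.04 on average (adjusted p = 0.0011, limma). Rpa1, the large subunit beside Rpa2, ran from -0.13 to 0.11.

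Rfc1, the large subunit of the clamp loader, gave different answers on its 3 probe sets. The main one, 1418342_at, had its smallest p in wt brain at 168 hr, where vehicle arrays ran from 7.52 to 7.70 and MAM arrays from 7.43 to 7.67 (-0.10 ± 0.07, set aside). In Mgmt-/- brain it differed by 0.01, 0.04, 0.11 and 0.02, and it was tested at 48 hr only. The dimmest, 1451920_a_at, fell after MAM in Mgmt-/- brain, by 0.60 ± 0.14 at 24 hr and 0.92 ± 0.15 at 48 hr on the log2 scale (adjusted p = 0.027 and 0.0022, limma).

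At 48 hr 1451920_a_at read 6.62, 6.80 and 6.85 in Mgmt-/- vehicle brain and 5.42, 5.81 and 6.42 after MAM, with no overlap. On their main probe sets 0.423% of all genes had no overlap in this comparison. In wt brain the 5 vehicle arrays read 6.92, 6.29, 6.38, 6.55 and 6.08 and the MAM arrays 6.63, 7.15 and 7.36, a difference of 0.63 ± 0.16 in the other direction (adjusted p = 0.15, limma), of which 4 of 6 MAM arrays lay above every vehicle array. The difference between those effects, -1.54 ± 0.22 (adjusted p = 5.1e-04, limma), was the largest of any probe set of the members. Both were called in all 23 fits that left out 1 array, at -1.03 to -0.82 and -1.69 to -1.45. They were also called with the RNA index as a covariate, at -0.98 (adjusted p = 0.049, limma) and -1.61 (adjusted p = 0.0035, limma). The erythroid markers given beside Mbd4 were lower on the same Mgmt-/- MAM arrays, and their part in this difference was not tested.

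At 24 hr this probe set had a lowest array of 6.53 and a median of 6.75 in Mgmt-/- vehicle brain and read 5.71, 6.16 and 6.52 after MAM, again with no overlap. The share of all genes without overlap on their main probe sets was 1.32% there. With the index as a covariate the difference was -0.36 and not called (adjusted p = 0.53, limma), and 6 of the 24 fits that left out 1 array ended the call. In wt brain at 24 hr it differed by -0.43 ± 0.14 (adjusted p = 0.49, limma). At 6 and 168 hr the Mgmt-/- differences were -0.51 ± 0.18 (adjusted p = 0.11, limma) and -0.40 ± 0.20 (set aside), and at 6 hr the covariate turned the sign, to 0.27. Averaged over the times it fell by 0.61 ± 0.09 on the log2 scale (adjusted p = 3.6e-07, limma). With the covariate it fell by 0.37, under the fold threshold and so not called. The averaged difference between the genotypes in the MAM effect was -0.57 ± 0.13 (adjusted p = 0.0034, limma), called, and -0.44 with the covariate, also called.

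The third Rfc1 probe set, 1449050_at, was called between the genotypes. It differed by 0.07, -0.01, -0.15 and -0.16 after MAM in Mgmt-/- brain. In vehicle brain at 6 hr wt arrays read 7.06, 7.25 and 7.51 and Mgmt-/- arrays 6.42, 6.90 and 7.11, a called difference of -0.38 ± 0.08 (adjusted p = 0.0023, limma). These groups overlapped, and the call held in 19 of the 24 fits that left out 1 array, at -0.41 to -0.31. The RNA index differed between the same groups without overlap. A fit of 1449050_at with that index is not given here. After MAM at 48 hr it was also called lower in Mgmt-/- than in wt brain. That call held in 18 of the 23 fits that left out 1 array, at -0.43 to -0.32. The 3 probe sets thus give no common direction for Rfc1, and which of its transcripts each reads was not analysed here.

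**Figure D4:**
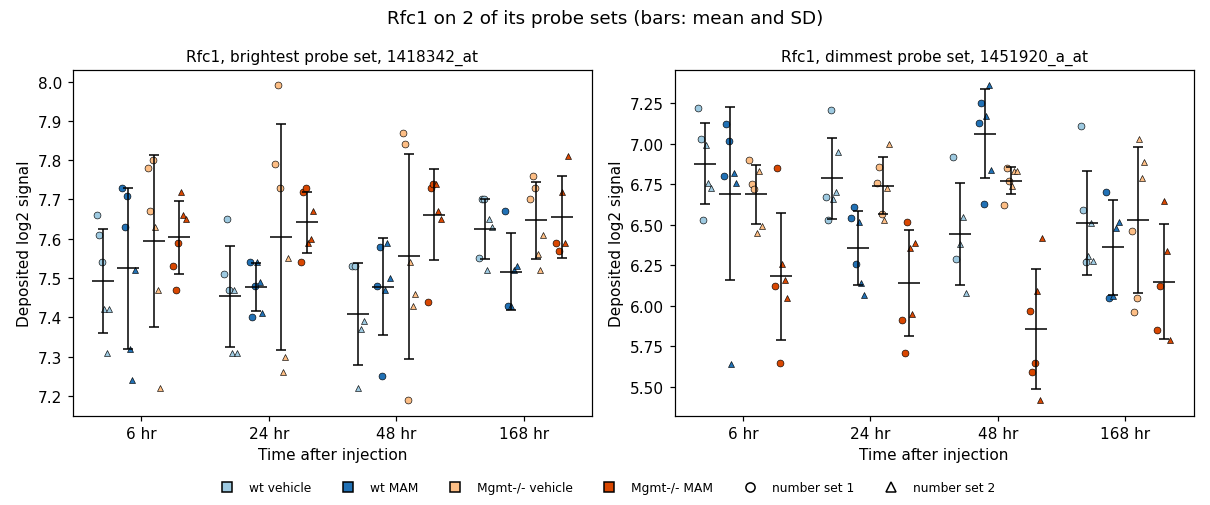
Deposited log2 signal (y axis) of 2 probe sets of Rfc1 on each array by time after injection (x axis). Circles and triangles are animals of number sets 1 and 2 and bars are the mean and SD; on 1451920_a_at the Mgmt-/- MAM arrays at 48 hr lie between 5.42 and 6.42, below the vehicle arrays at 6.62 to 6.85, and 1418342_at shows no such gap.

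Between the genotypes in vehicle brain 2.31, 3.1, 2.45 and 0.0773% of tested genes were called at 6, 24, 48 and 168 hr and 2.33% on average, and Ung at 24 hr was the single member. After MAM 5.02, 4.08, 7.23 and 1.87% of tested genes were called and 3.54% on average, beside 7.69% of 13 members tested at 6 hr, 6.06% of 33 at 48 hr, none at 24 and 168 hr and 2.78% on average, so that the shares of members were near the background. The members called there were Xpa at 6 hr (-0.43 ± 0.07, adjusted p = 4.4e-05, limma), Mbd4 (-0.60 ± 0.15, adjusted p = 0.008, limma) and Fen1 (0.47) at 48 hr, and Mbd4 on average (-0.43 ± 0.07, adjusted p = 3.2e-07, limma). None of these was called with that index as a covariate, at -0.36 for Xpa (adjusted p = 0.16, limma), -0.46 for Mbd4 at 48 hr (adjusted p = 0.49, limma) and -0.34 for Mbd4 on average (adjusted p = 0.017, limma), the last under the fold threshold. Mbd4 in vehicle brain differed by 0.01 ± 0.07 on average between the genotypes. Xpa 1437320_s_at was called 0.39 higher in Mgmt-/- brain after MAM at 48 hr, opposite in sign to the main Xpa probe set at 6 hr. That call held in 13 of the 23 fits that left out 1 array, which gave 0.29 to 0.43. This dim probe set was also higher in Mgmt-/- vehicle brain averaged over time, by 0.17 ± 0.05 (adjusted p = 0.0027, limma), under the fold threshold. Averaged over time, 15 members were higher and 1 lower in Mgmt-/- vehicle brain at unadjusted limma p under 0.05, with none past the fold threshold. Together these are 44.4% of members beside 42.4% of all genes, with 41.7% of members and 25.4% of all genes higher. The direction was not shared by all probe sets of a gene: Parp1, Polb and Fen1 were among the higher members, and Parp1 1435368_a_at differed by -0.28, Polb 1434229_a_at by -0.16 and Fen1 1421731_a_at by -0.18.

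For time alone in vehicle brain, 0.148% of all genes and 0 members were called. No member had an unadjusted p under 0.05 for time, against 8.31% of all genes, and the widest range of vehicle means over time in a member was 0.16. Between the number sets 0.874% of all genes and 0 members were called, and the members differed by -0.34 to 0.19, with 9 of them at adjusted p under 0.05 (limma), or 25% beside 29.5% of all genes.

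A further 56 genes of the same pathways were counted in the same way, of which 51 were measured. The laboratory filter left 15, 24, 42 and 34 of them tested at 6, 24, 48 and 168 hr. In wt brain 0 of them were called after MAM at any time. In Mgmt-/- brain 1 of the 15 tested at 6 hr was called, beside 1.69% of all tested genes, and 0 at the later times. It was Pold4, the small subunit of the replicative polymerase delta. Pold4 fell by 0.45 ± 0.08 on the log2 scale (adjusted p = 0.0021, limma), with -0.44 and -0.45 in the number sets. The RNA index differed without overlap in this comparison. Fits of Pold4 with that index or with 1 array left out are not given here. On average over the times 17 of the 51 had unadjusted limma p under 0.05 in Mgmt-/- brain (3 higher, 14 lower, 33.3%), beside 6 of 36 members, all lower (16.7%), and 26.2% of all genes, and 0 of them passed the fold threshold. Bulk brain RNA cannot tell a lower level per cell from fewer cells that express a gene.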

How the data were processed

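RNA of 94 mouse brains was hybridized to Affymetrix Mouse Genome 430 2.0 arrays, 1 per animal. The authors deposited 1 log2 value per probe set and array, made with RMA in the affy package (background correction, quantile normalization and summary over probes). The sources used here give neither versions nor whether RMA was run on all arrays at once. The labels describe a guanidinium and phenol extraction and the study's methods a column kit. Arrays have no read depth, and their number limits the precision.

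The deposited log2 values were analysed in R 4.3.3 with limma 3.58.1 and data.table (version 1.17.8). Each time point was fitted alone with 4 groups and the number set. Probe sets with p under 0.15 for the 3 laboratory interactions (joint F test) were set aside, and p-values were adjusted by Benjamini-Hochberg over all kept probe sets. A fit of 93 arrays without that filter gave effects averaged over time. Plots used matplotlib 3.10.9 under Python 3.11.15.

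Values are given for Mgmt, every member called in a comparison, and in each role the member with the smallest p after MAM in each genotype. Members not meeting this are given by range, and Pcna, Mpg and Aptx, with the other probe sets of Rfc1, Fen1, Mbd4, Xpa, Polb and Parp1, were named after their values were seen. The members and lists were chosen with earlier results of these data known. The labels name separate animals, so the spread is between animals. Alternatives were the filter, the test, the fold threshold, array weights, cyclic loess, the RNA index as a covariate, any probe set of a gene, the removal of dim probe sets, each number set alone and each array left out. The fits were tested on simulated data.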

Additional observations from a re-analysis of the deposited data

Results flagged for a closer look

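Among 192 pairs of a described gene and a group, 19 held an array whose gap to its neighbour took up an unusually large part of the group's range. Chance alone marks about 1 in 20 groups. Mbd4 had 4 of them, all in wt brain: 6.15 in vehicle at 24 hr (next 6.31), 7.01 in vehicle at 48 hr (next 6.19), 5.99 in vehicle at 168 hr (next 6.35) and 5.98 after MAM at 6 hr (next 6.27). Xpa had 6.01 in wt vehicle at 48 hr (next 6.15), 6.00 in Mgmt-/- vehicle at 6 hr (next 6.30), 5.40 in Mgmt-/- vehicle at 24 hr (next 6.09) and 5.79 in Mgmt-/- MAM at 48 hr (next 6.01). Fen1 had 9.78 in Mgmt-/- vehicle (next 9.19) and 10.42 in Mgmt-/- MAM brain (next 9.30) at 48 hr, and the second of these carries the call of Fen1 between the genotypes. Rfc1 had 7.25 in wt MAM (next 7.47) and 7.44 in Mgmt-/- MAM brain (next 7.65) at 48 hr.

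Ung stood at 4.41 on 1 array of wt MAM at 24 hr (next 4.93) and at 4.21 on 1 of Mgmt-/- vehicle at 168 hr (next 4.79). The remaining single arrays were Alkbh2 at 4.54 in Mgmt-/- MAM at 48 hr (next 4.93), Mutyh at 5.18 in Mgmt-/- vehicle at 6 hr (next 5.39), Msh6 at 6.28 in Mgmt-/- MAM at 168 hr (next 6.82), Exo1 at 4.79 in wt MAM at 24 hr (next 4.25) and Rpa2 at 6.61 in Mgmt-/- MAM at 6 hr (next 6.42). The RNA 3'/5' index reached 0.750 on 1 Mgmt-/- MAM array at 6 hr (next 0.625).

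The MAM effect differed between the genotypes by the interaction test for Xpa at 6 hr, at -0.64, and for Mbd4 averaged over the 4 times, at -0.44.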

How the results depend on the processing

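The counts below are of the 36 genes called. The main fits tested 13 of them at 6 hr and 16 at 24 hr. Fits of 1 number set alone used no laboratory filter and tested all 36, so their counts are not on the same footing. The shares of all genes called under these settings are not given here, so a higher count is not by itself a result about the members. MAM against vehicle in Mgmt-/- brain had 1 call at 6 hr, 1 at 24 hr and 0 at 48 and 168 hr. With the index of RNA quality in the fit the calls were 0 at 6 hr, 0 at 24 hr and 0 averaged. They were 0 at 24 hr with a filter on each laboratory interaction, 2 at 6 hr without the laboratory filter, 2 at 6 hr without the fold threshold and 1 at 48 hr with array weights. Counting any probe set of a gene gave 2 at 24 hr, 1 at 48 hr and 2 averaged. Number set 2 alone gave 6 at 6 hr, 0 at 24 hr and 1 at 168 hr, and 1 in wt brain at 48 hr. In that set alone the Mgmt difference at 6 hr turned to -0.42.

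The interaction had 1 call at 6 hr and 0 in either number set alone. At 48 hr it had 0, and 3 with array weights, 1 with any probe set and 1 in number set 2, and averaged it had 2 with any probe set.

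Between the genotypes after MAM, the index covariate gave 0 calls at 6 hr, 1 at 48 hr (Apex1, and neither Mbd4 nor Fen1) and 0 averaged. At 48 hr the 2 calls became 1 with a filter on each interaction, the ordinary linear model, array weights or number set 2, 0 with cyclic loess or number set 1, 4 with any probe set and 5 without the fold threshold. At 6 hr the count was 2 with any probe set, without the fold threshold and in either number set. At 24 hr it was 2 without the fold threshold, 1 with array weights and 6 in number set 2, at 168 hr 1 with array weights and 1 in number set 2, and averaged 3 with any probe set and 2 with cyclic loess. In vehicle brain the 24 hr call was 0 with the filter on each interaction, the ordinary model, cyclic loess, the covariate and number set 1, and 2 in number set 2. At 6 hr the count was 1 with any probe set, without the laboratory filter, without the fold threshold and with the covariate, and 11 in number set 2, and at 48 hr 1 with any probe set and 1 without the fold threshold. The cause was not tested.

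With 1 array left out, the Mgmt-/- MAM count ran from 1 to 2 at 6 hr and from 0 to 1 at 24, 48 and 168 hr. The interaction ran from 1 to 2 at 6 hr and from 0 to 2 at 48 hr, the genotypes after MAM from 1 to 2 at 6 hr, 0 to 1 at 24 hr, 0 to 2 at 48 hr and 0 to 1 at 168 hr, and in vehicle from 0 to 1 at 6 and 24 hr. The counts in wt brain after MAM stayed at 0. The Mbd4 call between the genotypes at 48 hr held in 18 of 23 such fits and the Fen1 call in 17 of 23. The calls of other probe sets of Rfc1, Fen1, Mbd4 and Xpa under these settings were added after seeing the data.

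The RNA index difference by beta-actin alone was 0.047, -0.051 and 0.029 in wt brain at 24, 48 and 168 hr, and by Gapdh alone it was 0.079 and 0.097 in wt brain at 24 and 168 hr (exact permutation p = 0.06 and 0.01) and 0.020, -0.007 and 0.013 in Mgmt-/- brain at 6, 24 and 48 hr. No paired analysis was possible because every animal number occurs in 1 group only.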
